A study of Homo sapiens with 6 samples.

Results

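The expression of 10 genes that encode subunits of the SWI/SNF chromatin remodeling complexes was examined in NALM6 cells treated with the covalent CDK7 inhibitor THZ1. The genes were SMARCA4, SMARCA2, SMARCB1, SMARCC1, SMARCC2, SMARCD1, SMARCE1, ARID1A, ARID1B and ARID2, a list of names matched by symbol in the deposited expression table and by Ensembl gene in the count table. All 10 were found among the 57905 genes counted, and all 10 were among the 16622 genes that passed the filter on low counts and were tested. NALM6 is an established human line of B cell precursor leukemia, and all 6 libraries came from this line, without any other genetic change named in the labels. RNA-SEQ was performed on 3 libraries of cells treated with the solvent DMSO and 3 libraries of cells treated with 500 nM of THZ1, each for 24 h. The labels do not say whether the libraries came from separate cultures, so the p-values measure the spread between these libraries, which may be technical. The study sequenced these libraries to ask how inhibition of CDK7, a kinase that phosphorylates RNA polymerase II, alters gene expression in this leukemia.

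SWI/SNF complexes use the energy of ATP hydrolysis to slide or evict nucleosomes, which opens enhancers and promoters for transcription factors. Each complex contains a single ATPase, either SMARCA4 (BRG1) or SMARCA2 (BRM), together with SMARCC and SMARCD proteins and, in most forms, SMARCB1 and SMARCE1. The complexes fall into a canonical form (cBAF) that carries ARID1A or ARID1B, a polybromo form (PBAF) that carries ARID2, PBRM1 and BRD7, and a noncanonical form (ncBAF) that carries BRD9 and BICRA or BICRAL and lacks SMARCB1 and SMARCE1. In B lymphoid cells, SMARCA4-containing complexes are known to act with lineage transcription factors, and genes of this family are frequently mutated in cancer.

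Gene counts totalled 11015480 to 11164840 per library with DMSO and 7876402 to 8314306 with THZ1. CPM values below are counts scaled to a common library size with TMM factors, which take the bulk of genes as unaltered. That premise stands beside 84.5% of all genes tested being called in either direction. Fold changes are from edgeR's quasi-likelihood test, with p-values adjusted by Benjamini-Hochberg over all genes tested. These values are relative to all RNA in a library, so fewer cells of a kind and less RNA per cell cannot be told apart. Nor can a rise be told apart from a loss per cell that was smaller than that of most genes. Lower and higher below are meant in this relative sense. All 9 B cell precursor markers examined, among them CD79A, PAX5 and VPREB1, passed the filter. They summed to 3357 to 3428 CPM with DMSO and 1794 to 1852 CPM with THZ1. Of these markers 7 were called lower and 2 higher, namely CD79A by 2.51-fold and RAG1 by 1.14-fold. The 6 T cell markers summed to at most 1.94 CPM in any library, with CD8A at 0 counts throughout, the 6 myeloid markers to 12.8 to 14.5 CPM with DMSO and 19.0 to 21.4 CPM with THZ1, and the 5 fibroblast markers to 3.20 to 4.63 CPM with DMSO and 15.8 to 16.2 CPM with THZ1. Of the fibroblast markers COL1A1 was called 4.23-fold higher, while COL1A2, COL3A1, DCN and LUM had at most 2 counts in any library. Of the myeloid markers CD14 and CSF1R were called higher, CD14 by 13.4-fold, and LYZ and CD33 were called lower, while CSF1R had at most 2 counts in any DMSO-treated library. The part of these markers in the results below was not tested.

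THZ1 treatment lowered the expression of 8 of the 10 SWI/SNF genes and raised that of 1, ARID1A (adjusted p-value below 0.05 in edgeR). By the same rule 41.1% of all genes tested were lower, 43.5% higher and 84.5% called in either direction, so a call as such was common. The median log2 fold change of the 10 genes was −0.52, beside 0.03 over all genes tested. The largest decreases were those of the ATPase SMARCA4, the core subunit SMARCB1 and the ATPase SMARCA2, which were the 3 members lower by at least 1 on the log2 scale, a size reached downward by 22.6% of all genes tested. For all 10 genes the treatments were separated without overlap, which also held for 84.7% of all genes tested. Summed over the 10 genes, the level was 1790 CPM, 1813 CPM and 1722 CPM in the DMSO-treated libraries and 1317 CPM, 1245 CPM and 1236 CPM in the THZ1-treated libraries. Every THZ1-treated library was below every DMSO-treated library, and the THZ1 mean was 71.3% of the DMSO mean (p = 0.1 by a two-sided exact permutation test, which cannot go lower with 3 libraries against 3). On the log2 scale this sum fell by 0.49, and the fall ranged from 0.29 with upper quartile factors to 0.74 with library sizes alone.

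**Figure D1:**
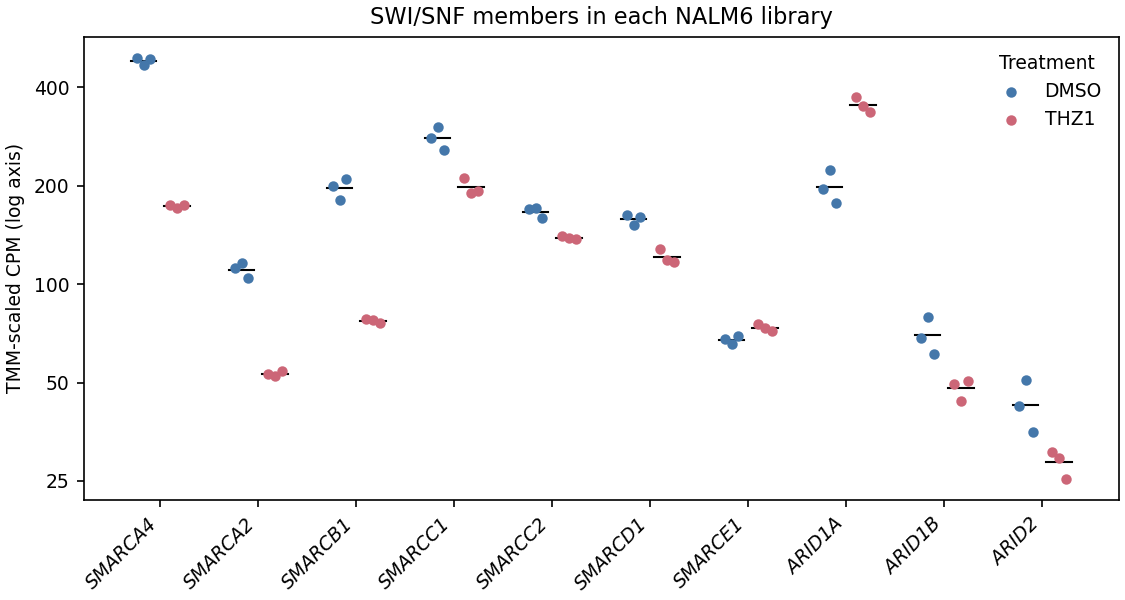
TMM-scaled CPM (log axis) of the 10 SWI/SNF members in each library, with DMSO in blue, THZ1 in red and black bars for the mean of 3 libraries. SMARCA4 fell from 484 to 173 CPM on average, ARID1A rose from 199 to 354 CPM, and the groups did not overlap for any member.

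SMARCA4 (ENSG00000127616, chromosome 19 from 11071608 to 11190102 in GRCh37, plus strand) encodes BRG1, the main SWI/SNF ATPase of dividing cells. It had 493 CPM, 470 CPM and 488 CPM in the DMSO-treated libraries and 174 CPM, 171 CPM and 174 CPM in the THZ1-treated libraries. The THZ1-treated libraries lay within a few CPM of each other, far below the lowest DMSO-treated library. SMARCA4 changed by −1.48 on the log2 scale, with a standard error of 0.07 (adjusted p = 3.2e-19 by edgeR), so that 35.8% of the DMSO level was left. Of all genes tested, 13.2% had a lower log2 fold change than SMARCA4. SMARCA2 (chromosome 9 from 1980290 to 2193624, plus strand), the gene of the alternative ATPase BRM, had 112 CPM, 116 CPM and 104 CPM with DMSO. It fell to 53.0 CPM, 52.2 CPM and 54.4 CPM with THZ1, which left 48.1% of the DMSO level. On the log2 scale this was −1.06 with a standard error of 0.08 (adjusted p = 1.3e-13 by edgeR). THZ1 therefore lowered both ATPase transcripts. SMARCA2-AS1 covers 2.20% of the exonic bases of SMARCA2 on the opposite strand.

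Among the core subunits the decreases were of unequal size. SMARCB1 (chromosome 22 from 24129118 to 24180196, plus strand) encodes BAF47 (SNF5), a subunit that contacts the nucleosome and whose loss defines rhabdoid tumors. It had 200 CPM, 181 CPM and 209 CPM with DMSO and 78.2 CPM, 77.8 CPM and 76.1 CPM with THZ1. All THZ1-treated libraries were under the lowest DMSO-treated library, and SMARCB1 changed by −1.35 on the log2 scale (standard error of 0.08, adjusted p = 6.7e-17 by edgeR). DERL3 covers 17.7% of the exonic bases of SMARCB1 on the opposite strand, and the strand setting of the counting is not given in the sources used here. The paired scaffold subunits changed less. SMARCC1 (BAF155, chromosome 3 from 47626759 to 47823596, minus strand) had 279 CPM, 303 CPM and 258 CPM with DMSO and, after THZ1, 211 CPM, 190 CPM and 193 CPM, which is −0.50 ± 0.07 (standard error) as log2 fold change. SMARCC2 (BAF170, chromosome 12 from 56556143 to 56583351, minus strand) had 169 CPM, 171 CPM and 159 CPM with DMSO and, after THZ1, 141 CPM, 138 CPM and 137 CPM, which is −0.26 ± 0.07. Both fell, but the decrease of SMARCC2 was small enough for the choice of scaling to matter. SMARCC1 had an adjusted p-value of 1.6e-07 and SMARCC2 of 0.000875 (edgeR), and with upper quartile factors SMARCC2 had a log2 fold change of −0.07 and an adjusted p-value of 0.352.

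SMARCD1 (BAF60A, chromosome 12 from 50478983 to 50494490, plus strand), which links the complex to transcription factors, had 163 CPM, 152 CPM and 160.0 CPM with DMSO. THZ1 treatment left 128 CPM, 119 CPM and 117 CPM, so no treated library reached the lowest DMSO-treated library. SMARCD1 changed by −0.38 on the log2 scale (standard error of 0.07, adjusted p = 1.2e-05 by edgeR). Across the alternatives SMARCD1 ranged from −0.63 to −0.19 and SMARCC1 from −0.75 to −0.31, both ends set by the scaling, and both stayed called. SMARCE1 (BAF57, chromosome 17 from 38781214 to 38804906, minus strand), a core subunit with a DNA-binding HMG domain, was the only member not called. It had 67.8 CPM, 65.6 CPM and 69.5 CPM with DMSO and 75.6 CPM, 73.2 CPM and 71.7 CPM with THZ1. The THZ1-treated libraries were slightly higher without overlap, but the log2 fold change of 0.12 (standard error 0.08) gave an adjusted p-value of 0.155 by edgeR. The sign of SMARCE1 depended on the scaling and the table, which gave 0.31 with upper quartile factors, −0.13 when no factors were used and −0.20 from limma on the deposited log2 FPKM. ENSG00000264058 covers 18.9% of the exonic bases of SMARCE1 on the same strand, so reads there could be shared or lost.

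The ARID subunits, which define the cBAF and PBAF forms and bind DNA with little sequence preference, moved in opposite directions. ARID1A (BAF250A, chromosome 1 from 27019727 to 27108595, plus strand), a chromatin gene often mutated in cancer, had 195 CPM, 224 CPM and 177 CPM with DMSO. It rose to 375 CPM, 350 CPM and 337 CPM with THZ1, where even the lowest treated library was above the highest DMSO-treated library. This was a 1.78-fold increase, or 0.83 ± 0.08 (standard error) on the log2 scale, with an adjusted p-value of 1.2e-11 (edgeR). Its paralog ARID1B (BAF250B, chromosome 6 from 157097154 to 157531913, plus strand) had 68.4 CPM, 79.4 CPM and 61.3 CPM with DMSO and 49.6 CPM, 44.02 CPM and 50.5 CPM with THZ1. ARID1B thus changed by −0.54 ± 0.09 (standard error) on the log2 scale. By limma on the deposited log2 FPKM, ARID1B changed by −1.18. ARID2 (BAF200, chromosome 12 from 46123489 to 46301823, plus strand), the ARID subunit of PBAF, had 42.4 CPM, 50.9 CPM and 35.2 CPM with DMSO and 30.6 CPM, 29.5 CPM and 25.4 CPM with THZ1. Its lowest DMSO-treated library was close to its highest THZ1-treated library, and the change of ARID2 was −0.59 ± 0.12. The adjusted p-values of ARID1B and ARID2 were 5.2e-06 and 2.7e-05 (edgeR), and limma on log2 FPKM gave −0.99 for ARID2, so both decreases were larger in that table.

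The DNA just before the start of the gene is shown for the ATPase pair, which fell together, and for the ARID1 pair, whose members moved apart. The sequences are from RefSeq on GRCh38.p14, whose coordinates differ from the GRCh37 coordinates above, and each is the 250 bases before an annotated start on the strand of the gene. Of several starts of a gene, the start with the most CpG dinucleotides was taken. Of the 10 members, 7 matched an entry. The windows are chr19:10960780-10961029 for SMARCA4, chr9:2015097-2015346 for SMARCA2, chr1:26695765-26696014 for ARID1A and chr6:156777128-156777377 for ARID1B, all on the plus strand. Capitals mark GC boxes (GGGCGG or, on the other strand, CCGCCC), a motif of Sp1-type factors.
SMARCA4: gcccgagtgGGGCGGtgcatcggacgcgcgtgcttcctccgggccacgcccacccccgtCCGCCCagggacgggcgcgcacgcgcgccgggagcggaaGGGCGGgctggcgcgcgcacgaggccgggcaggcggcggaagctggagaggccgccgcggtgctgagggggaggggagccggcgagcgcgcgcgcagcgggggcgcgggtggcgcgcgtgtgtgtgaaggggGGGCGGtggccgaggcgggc
SMARCA2: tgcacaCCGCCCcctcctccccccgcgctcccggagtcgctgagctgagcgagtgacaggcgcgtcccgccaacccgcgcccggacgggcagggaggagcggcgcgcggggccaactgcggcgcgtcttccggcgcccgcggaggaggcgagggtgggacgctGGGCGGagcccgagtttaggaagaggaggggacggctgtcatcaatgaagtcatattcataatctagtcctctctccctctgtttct
ARID1A: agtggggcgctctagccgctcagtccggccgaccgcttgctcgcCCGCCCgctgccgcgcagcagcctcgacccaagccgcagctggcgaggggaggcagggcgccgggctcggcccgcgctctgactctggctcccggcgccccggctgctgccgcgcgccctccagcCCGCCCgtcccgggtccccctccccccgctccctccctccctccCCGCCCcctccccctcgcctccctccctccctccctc
ARID1B: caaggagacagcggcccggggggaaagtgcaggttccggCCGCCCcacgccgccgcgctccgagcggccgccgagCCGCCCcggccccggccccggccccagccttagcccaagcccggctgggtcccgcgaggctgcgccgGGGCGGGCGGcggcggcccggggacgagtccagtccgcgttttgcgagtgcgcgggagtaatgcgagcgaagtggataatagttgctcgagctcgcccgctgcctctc
All 4 windows were rich in G and C, with 82.4% in SMARCA4, 68.8% in SMARCA2, 80.4% in ARID1A and 76.0% in ARID1B. The median was 59.2% over the 27303 genes with a window in the table, which were not limited to the genes tested here. The 4 windows held 44, 29, 30 and 37 CpG dinucleotides in the same order, beside a median of 12. SMARCA4 and ARID1B each held 4 GC boxes, ARID1A held 3 and SMARCA2 held 2. Overlapping boxes, as in the stretch GGGCGGGCGG of ARID1B, were counted separately. A GC box lay in 6 of the 7 members with a window, the exception being SMARCB1, and in 44.9% of all windows. The E-box CACGTG, bound by MYC with MAX, lay in 0 of the 7 and in 6.63% of all windows, the TATA box TATAAA in 0 of the 7 and in 10.7%, and the CCAAT box CCAAT in SMARCB1 and SMARCE1 and in 32.4%. High GC content was not common to all members, since the windows of SMARCB1, which fell, and SMARCE1, which was not called, held 58.0% and 54.4% G and C, below the median over all genes.

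Levels of different genes were compared in FPKM, which corrects for gene length, taken back from the deposited log2 values read as log2(FPKM + 1). In that table genes with 0 counts had log2 values of 0.323 to 0.350 in the DMSO-treated libraries. The lowest log2 value in the THZ1-treated libraries was 0, so low levels of the treatments are not on quite the same footing. Of the log2 values of a library, 70.3% to 80.3% were also found, to 6 decimals, among those of any given other library, so the libraries share much of their set of values. The step that made them so is not given in the sources used here, and all FPKM spreads, shares and limma results given here describe values after it, not the plain spread between libraries. In the DMSO-treated libraries the order from the highest was SMARCC1 with 105 ± 13.5 FPKM (SD, n = 3 libraries, as for all values here), SMARCD1 with 91.4 ± 2.65, SMARCA4 with 87.1 ± 2.31, SMARCC2 with 50.7 ± 3.12, ARID1A with 34.9 ± 4.39, SMARCB1 with 33.1 ± 2.22, SMARCA2 with 16.98 ± 0.605, SMARCE1 with 10.8 ± 0.532, ARID2 with 10.5 ± 1.54 and ARID1B with 5.28 ± 0.422. The neighbours SMARCC1 and SMARCD1, SMARCD1 and SMARCA4, ARID1A and SMARCB1, and SMARCE1 and ARID2 overlapped in their ranges over these libraries. Within each DMSO-treated library, however, SMARCC1 was above SMARCD1 and SMARCD1 above SMARCA4. The order of ARID1A and SMARCB1, and that of SMARCE1 and ARID2, varied between libraries. With THZ1 the order was SMARCC1 with 66.5 ± 3.83 FPKM, SMARCD1 with 63.5 ± 3.12, ARID1A with 57.2 ± 2.99, SMARCC2 with 39.5 ± 0.402, SMARCA4 with 28.5 ± 0.525, SMARCB1 with 11.3 ± 0.180, SMARCE1 with 9.31 ± 0.288, SMARCA2 with 6.15 ± 0.217, ARID2 with 4.77 ± 0.562 and ARID1B with 1.77 ± 0.209. With THZ1 only the ranges of SMARCC1 and SMARCD1 overlapped as neighbours, though SMARCC1 was the higher in each library, and the other neighbours were separate. SMARCA4, just below SMARCD1 in the DMSO-treated libraries, thus lay below ARID1A and SMARCC2 after THZ1 treatment, whereas ARID1A rose to the third place.

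Within a subunit class the make-up changed most among the ARID subunits. ARID1A made up 68.7%, 69.0% and 69.0% of the summed ARID1A, ARID1B and ARID2 FPKM in the DMSO-treated libraries and 89.5%, 89.8% and 89.9% in the THZ1-treated libraries. ARID2 dropped from a mean share of 20.7% to 7.47% and ARID1B from 10.4% to 2.79%. In the ATPase pair the FPKM shares stayed close, with SMARCA4 at 83.7% ± 0.331 with DMSO and 82.3% ± 0.304 with THZ1 (SD, n = 3 each). The count ratio of this pair, given below, shifted more than its FPKM ratio. SMARCC1 held 67.3% ± 1.55 of its pair with DMSO and 62.7% ± 1.09 with THZ1. Neither of these pairs overlapped between treatments, although the shifts were of a few percentage points. For each of these shares the two-sided exact permutation test gave p = 0.1, the smallest possible. In the BAF60 class, SMARCD2 supplied 65.5% ± 0.886 with DMSO and 65.8% ± 1.78 with THZ1 (p = 0.8 by the same exact test).

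**Figure D2:**
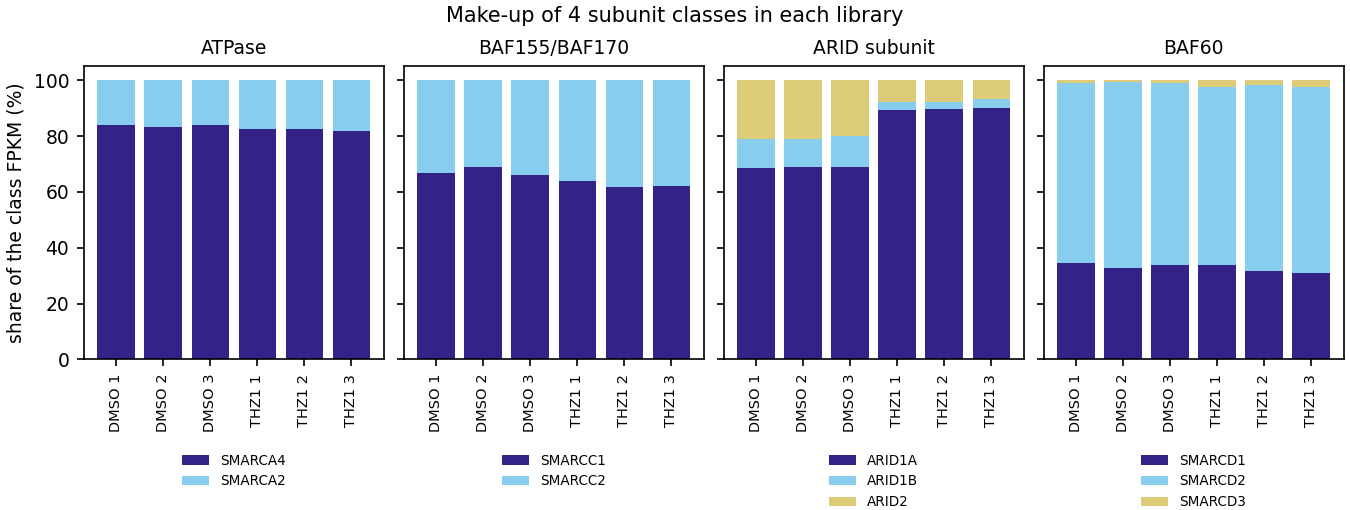
Share of the FPKM summed over each subunit class (%, from 0) in each of the 6 libraries, 1 stacked bar per library. The ARID1A share rose from 68.9% to 89.7% on average, whereas the SMARCA4 share of the ATPase pair stayed between 81.9% and 83.9%.

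Ratios of the raw counts of related genes within a library need no scaling between libraries, and 6 pairs were compared. The log2 ratio of ARID1B to ARID1A was −1.51, −1.50 and −1.53 in the DMSO-treated libraries and −2.92, −2.99 and −2.74 in the THZ1-treated libraries, a change of −1.37. That of ARID2 to ARID1A changed by −1.41, from −2.23 ± 0.0979 to −3.64 ± 0.0829 (SD, n = 3 each). Both ratios fell by far more than the spread between replicates. The ratio of SMARCA2 to SMARCA4 rose by 0.43, from −2.13 ± 0.103 to −1.70 ± 0.0199, so SMARCA4 lost a larger share of its counts than SMARCA2 did. The ratio of SMARCC2 to SMARCC1 rose by 0.24 and that of SMARCD3 to SMARCD1 by 2.37, again without overlap between treatments. Each of these 5 pairs had p = 0.1 by the two-sided exact permutation test, the smallest possible, and 0.12 after Benjamini-Hochberg adjustment over the 6 pairs. The ratio of SMARCD2 to SMARCD1 changed by 0.16, with overlapping libraries (exact permutation p = 0.2). In FPKM, the change was −2.29 for ARID1B to ARID1A, 0.15 for SMARCA2 to SMARCA4 and 1.39 for SMARCD3 to SMARCD1, so the sizes of these shifts depended on the table, while their directions were the same.

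The other subunits of SWI/SNF complexes were examined from a list of 19 genes, of which 18 were tested. ACTL6B, the neuronal actin-related subunit, had at most 4 counts in any library. Of the 18 genes, 8 were lower and 7 higher by the same edgeR rule, and their median log2 fold change was −0.11. The subunits of the same form did not move together. In PBAF, PBRM1, which reads acetylated histones through its bromodomains, dropped by 1.11 on the log2 scale, from 103 ± 15.9 to 47.6 ± 1.45 CPM (SD, n = 3 libraries). The bromodomain subunit BRD7 dropped by 1.53, from 125 ± 5.38 to 43.3 ± 3.14 CPM. PHF10, which supplies the plant homeodomain fingers of the same complex, rose by 0.78, from 100.2 ± 4.77 to 172 ± 9.70 CPM. ADCY7 covers 41.8% of the exonic bases of BRD7 on the opposite strand.

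In ncBAF, BICRAL had the lowest log2 fold change of all subunits, −2.73 with a standard error of 0.22 (adjusted p = 7.6e-13 by edgeR). It had 177, 219 and 154 counts in the DMSO-treated libraries and 17, 11 and 23 counts in the THZ1-treated libraries, low but above the floor of 3 counts used here. Its paralog BICRA dropped by 0.98, from 27.3 ± 2.40 to 13.8 ± 1.25 CPM. BRD9, the bromodomain subunit of the same form, was not called, at 94.2 ± 2.07 CPM before and 96.7 ± 2.09 CPM after THZ1 (adjusted p = 0.640 by edgeR), though it was called higher with upper quartile factors and lower with library sizes alone. In cBAF, the histone reader DPF2 rose by 0.46 on the log2 scale, from 87.8 ± 4.55 to 121 ± 4.05 CPM. Its less abundant relative DPF1 rose by 0.94, a call that the log2 FPKM values did not give. DPF3 was not called, at 4.64 ± 1.14 CPM before and 3.55 ± 0.683 CPM after THZ1, but was called lower in the FPKM fits.

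Among the subunits attached to the ATPase, ACTL6A (BAF53A), the actin-related partner of SMARCA4 in dividing cells, dropped from 114 ± 3.90 to 33.7 ± 1.48 CPM, which is −1.75 ± 0.08 (standard error) on the log2 scale (adjusted p = 1.4e-18 by edgeR). The BCL7 family split, with BCL7A lower (log2 fold change −0.89), and BCL7B (0.63) and BCL7C (1.37) higher. SS18 fell by 1.05 on the log2 scale, whereas its paralog SS18L1 was not called, at 60.03 ± 3.37 CPM before and 60.2 ± 2.96 CPM after THZ1 (adjusted p = 0.979 by edgeR). SS18L1 was called lower when no scaling factors were used and higher with upper quartile factors. ACTB, the beta-actin gene whose product also serves outside these complexes, changed by 0.65 on the log2 scale in counts and by −0.0776 in log2 FPKM. Its FPKM values in THZ1 replicates 2 and 3, 2821 and 2918, were also those of DMSO replicates 3 and 2. They belong to the set of values that the libraries share in that table, so the FPKM change is not a separate reading of its direction. SMARCD3 (BAF60C), the muscle-enriched member of its class, rose most, by 1.99 ± 0.20 (standard error) on the log2 scale (adjusted p = 1.8e-10 by edgeR), against 0.65 in limma on log2(FPKM + 1) and 0.83 on log2(FPKM + 0.1). It had only 2.98 CPM, 2.46 CPM and 2.87 CPM with DMSO and 12.1 CPM, 9.41 CPM and 11.5 CPM with THZ1. CHPF2 covers 26.9% of its exonic bases on the opposite strand. SMARCD2 (BAF60B) fell by 0.23 on the log2 scale, a call that was lost with upper quartile factors, where its log2 fold change was −0.03. Over all 28 subunits tested, 57.1% were lower and 28.6% higher, beside 41.1% and 43.5% of all genes, and 85.7% were called in either direction, close to the 84.5% of all genes.

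**Figure D3:**
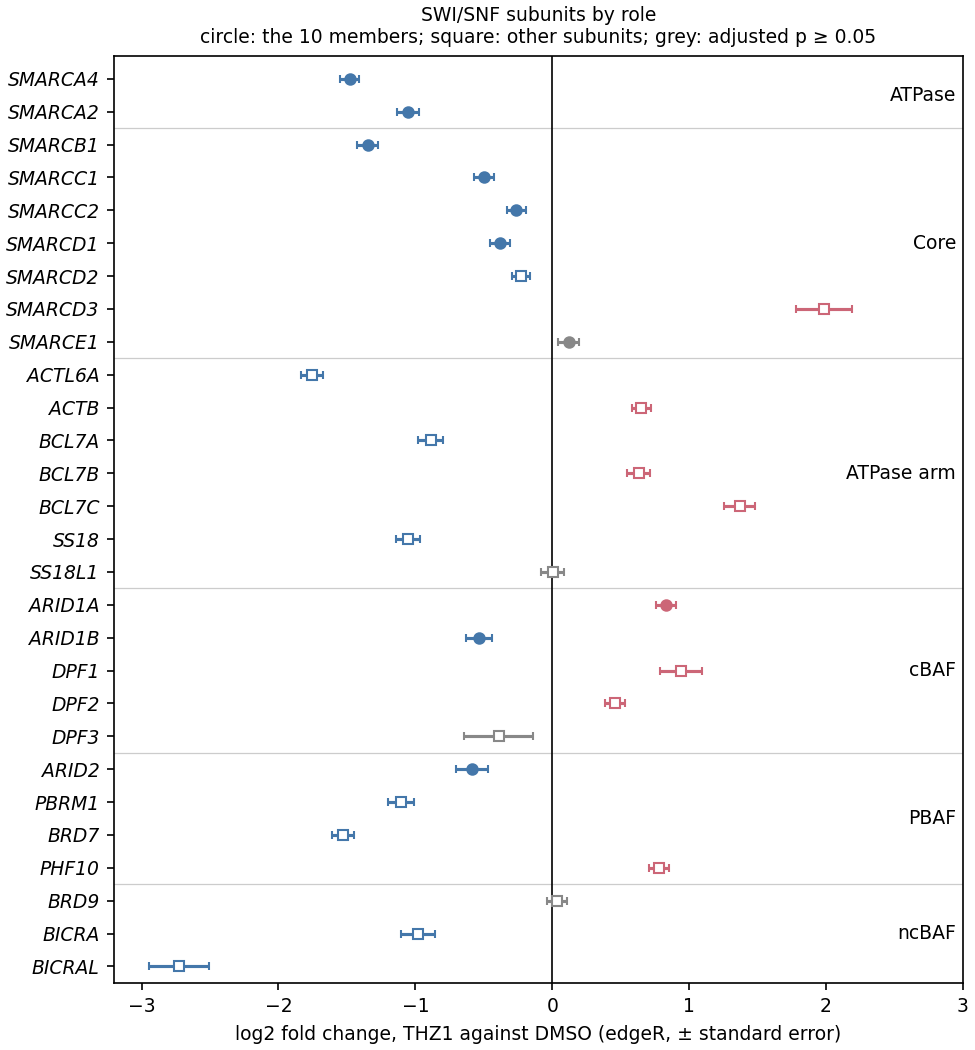
Log2 fold change of THZ1 against DMSO (edgeR, with its standard error) for the 28 SWI/SNF subunits tested, by role, with circles for the 10 members and squares for other subunits, blue for lower, red for higher and grey for not called. The values run from BICRAL at −2.73 to SMARCD3 at 1.99, and ARID1A at 0.83 stands apart from the other members.

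For comparison, ATPases of other chromatin remodeler families were examined from a list of 19 genes, of which 18 were tested and SMARCA1 had at most 1 count in any library. Of the 18 genes, 8 were lower and 4 higher, with a median log2 fold change of −0.09. The count of 4 was 2 without DMSO replicate 3 and 2 without THZ1 replicate 1, and 7 with upper quartile factors. The count of 8 was 12 with library sizes alone. SMARCA5, the ISWI ATPase that spaces nucleosomes, stood at 300.2 ± 17.04 CPM before and 308 ± 10.4 CPM after THZ1 (SD, n = 3 libraries). CHD4, the main NuRD ATPase, stood at 598 ± 24.9 and 598 ± 35.4 CPM. Neither was called, with adjusted p-values of 0.598 for SMARCA5 and 0.991 for CHD4 (edgeR), beside the called decreases of SMARCA4 and SMARCA2. CHD2 was highest, at a log2 fold change of 1.44, and SMARCAD1 lowest, at −2.26. CHD1L changed by −2.14, ERCC6 by −1.58 and HELLS by −1.36, so large decreases were not limited to the SWI/SNF ATPases. The difference between the families was not tested.

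The members differ widely in gene span, the outer extent of the annotated gene, from 15.5 kb for SMARCD1 to 435 kb for ARID1B. The transcripts made in these cells may cover less than the span. Under 50 kb, SMARCD1, SMARCC2 and SMARCE1 had a median log2 fold change of −0.26, beside 0.05 for all 7766 protein-coding genes tested of that span. From 50 to 150 kb, SMARCB1, ARID1A and SMARCA4 had a median of −1.35, beside −0.54 for 2996 genes, of which 60.6% were lower and 22.8% higher. All 4 members over 150 kb, namely SMARCA2, SMARCC1, ARID1B and ARID2, were lower, with a median of −0.56, beside −0.665 for 1167 genes, of which 63.3% were lower and 19.1% higher. Long genes as a whole were thus lower more often than short genes in these libraries, and among the long members SMARCA2, at −1.06, lay below the median of its class. Within the middle class, ARID1A, at 88.9 kb, lay on the other side of 0 from SMARCB1 and SMARCA4. The part of gene span in the changes of the members was not tested.

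**Figure D4:**
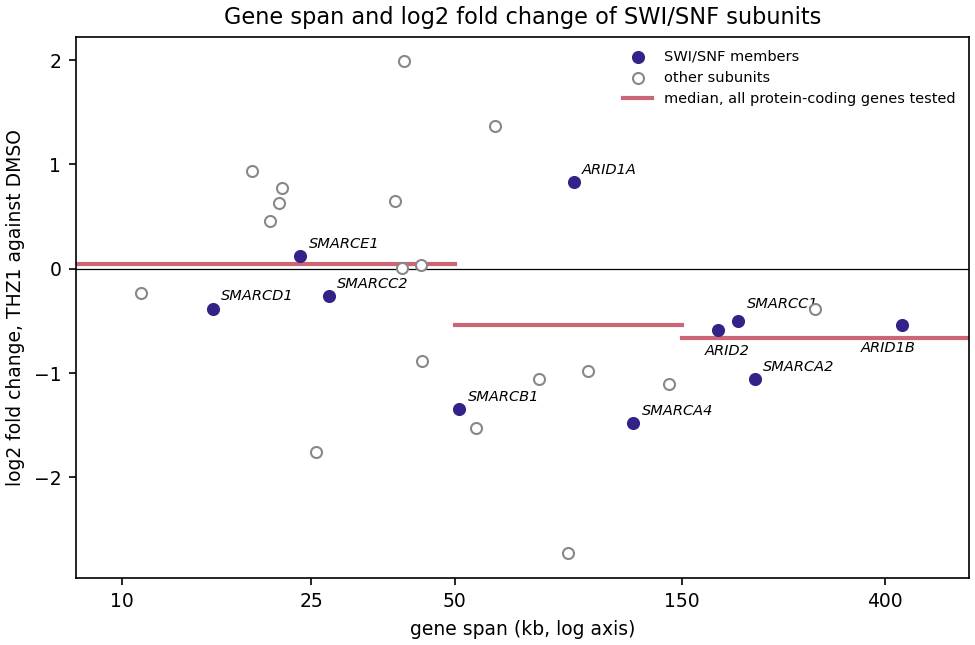
Log2 fold change of THZ1 against DMSO (edgeR) against gene span in kb (log axis), with filled points for the 10 members, open points for other subunits, and red lines for the median of all protein-coding genes tested in 3 classes of span. The medians are 0.05, −0.54 and −0.665 from the shortest class to the longest.

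Replicates of most members were close. The coefficient of variation between the DMSO-treated libraries ranged from 2.48% for SMARCA4 to 18.4% for ARID2, with a median of 6.25%. Between the THZ1-treated libraries it ranged from 1.17% for SMARCC2 to 9.66% for ARID2, with a median of 3.92%. Over all genes tested, which were not matched to the members in count level, the medians were 10.5% with DMSO and 9.52% with THZ1. ARID1A, ARID1B and ARID2 with DMSO varied more than that median. For 6 of the 10 members DMSO replicate 2 was the highest and DMSO replicate 3 the lowest DMSO-treated library, an order found for 26.5% of all genes tested. ARID1A, ARID1B, ARID2 and SMARCC1, for which these replicates lay farthest apart, had this order. Without DMSO replicate 2 and without DMSO replicate 3 in turn, each kept its direction and its call, and with each of the 6 libraries omitted singly ARID1A ranged from 0.73 to 0.90 and ARID2 from −0.73 to −0.47 on the log2 scale. Across the other scalings, tools and tables, 8 of the 10 members kept both direction and call, the exceptions being SMARCC2 and SMARCE1.

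**Figure D5:**
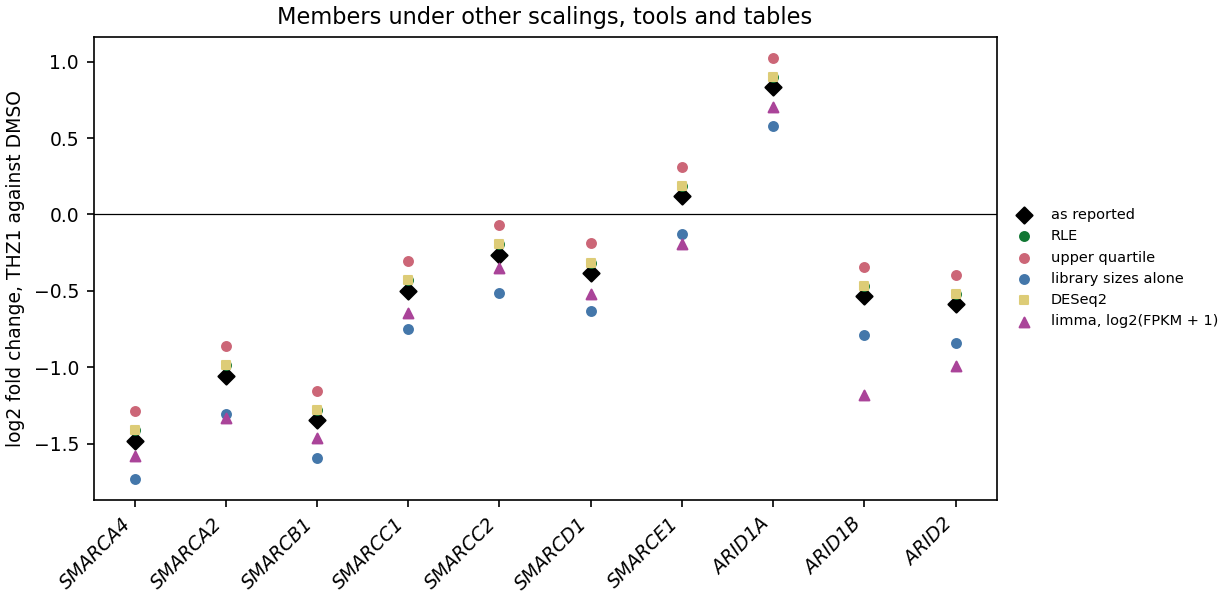
Log2 fold change of THZ1 against DMSO for the 10 members as reported (black diamonds) and with RLE factors, upper quartile factors, library sizes alone, DESeq2 and limma on the deposited log2 FPKM values. ARID1A stayed above 0 and SMARCA4 at or below −1.29 in each, whereas SMARCE1 lay between −0.20 and 0.31.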

How the data were processed

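The data comprised 6 NALM6 RNA-SEQ libraries, 3 per treatment. Per the study's methods, reads were filtered, aligned by STAR against GRCh37 and assigned to genes by HTSeq (the submitters' processing notes also name cutadapt, without its role), and the authors deposited raw counts per gene without normalization. The annotation, strand setting and counter version are not given in the sources used here. A second deposited table holds FPKM from RSEM on a log2 scale for 16730 genes. It also holds the authors' p-values, FDR values and log2 fold changes, which were not used. The design, written for linear FPKM, was kept by taking the log2 values back.

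Low genes were removed by filterByExpr of edgeR at a count of 10 and a total of 15. TMM factors were applied, and THZ1 was tested against DMSO by the two-sided quasi-likelihood test, with p-values of 16622 genes adjusted by Benjamini-Hochberg. Shares, ratios and sums were compared by two-sided exact permutation tests. Alternatives were other scalings and filters, DESeq2, limma on FPKM, a replicate block, a fold threshold and each library left out. Standard errors were derived from the F statistic of the quasi-likelihood fit, so they include the spread between libraries. The floor of 3 counts covers counting error only. The members and lists were chosen with earlier results of these data known. All 10 members were named, with any gene of the lists of other subunits and remodeler ATPases, and always their highest and lowest. Coordinates and lengths are from GENCODE 44 mapped to GRCh37. Replicates differed by more than sampling noise (chi-square per gene 1.81 to 9.35). Fits were tested on simulated counts in which most genes were unaltered, so that test does not bear on the choice of scaling. A further planned marker gene is not reported here. R 4.3.3, edgeR 4.0.16, limma 3.58.1, DESeq2 1.42.0, Python 3.11.15, scipy 1.17.1 and matplotlib 3.10.9 were used.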

Additional observations from a re-analysis of the deposited data

How the results depend on the processing

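Relative to TMM, the median log2 fold change of all genes shifted by 0.19 with upper quartile factors, by −0.25 with library sizes alone and by −0.26 in the log2 FPKM values, so changes of that size carry little weight. Of all calls 51.4% were higher, against 44.2% with library sizes alone and 57.2% with upper quartile factors. The 8 lower members were 3 at a log2 fold change of at least 1, and the 1 higher member was 0. With RLE factors, upper quartile factors, DESeq2 or at least 10 counts in every library, 2 members were higher, ARID1A and SMARCE1. At a log2 fold change of at least 1, 5 other subunits were lower and 2 higher, 4 other remodeler ATPases lower and 1 higher, and 3763 of the 6826 lower genes were left. The 4 higher remodeler ATPases were 7 with upper quartile factors and 2 with library sizes alone, with no filter and in each of the 3 fits of FPKM, and 2 to 5 with each library left out. SMARCE1 turned to −0.20 or −0.21 in the FPKM fits (adjusted p = 0.0392 to 0.0405 by limma), ACTB there to −0.07755 or −0.07758 by pseudocount, SS18L1 to −0.25 and BRD9 to −0.21 with library sizes alone. SMARCC2 was −0.13 with at least 10 counts in every library (adjusted p = 0.0763 by edgeR). In FPKM the change of the log2 ratio was 0.15 for SMARCA2 to SMARCA4, −2.29 for ARID1B to ARID1A, −1.85 for ARID2 to ARID1A and 1.39 for SMARCD3 to SMARCD1. The summed level of the members changed by −0.42 with RLE factors, −0.29 with upper quartile factors and −0.74 with library sizes alone. The causes were not tested.

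The labels do not say whether libraries of the same number were paired, and the values showed no sign of it. The correlation of deviations from the treatment means was −0.00400, 0.000969 and 0.0206 for the same-numbered pairs, and not every library correlated best with its own number. With the replicate number as a block, 6786 genes were lower and 7181 higher, and the same counts of members, 8 and 1, were called.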
